A study of Rattus norvegicus with 10 samples.

Results

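Expression of 9 genes known as targets of interferon gamma was followed through the livers of 10 male rats. The genes were the chemokines Cxcl9, Cxcl10, Cxcl11 and Ccl2, the GTPases Gbp2, Gbp5, Igtp and Irgm, and the signalling inhibitor Socs1. A probe set was taken as a member when the platform annotation gave it exactly 1 gene symbol and that symbol was on the list. This gave 11 probe sets of 8 genes, out of 14217 genes with such a probe set and 31042 probe sets tested, with a pair of probe sets each for Cxcl9, Igtp and Socs1. No probe set naming Gbp5 alone was among those used here, so its expression was not analysed. The genes were chosen partly on measured values of these animals, among them the Cxcl10 difference between groups and the readings of exposed animal 4 for Cxcl10 and Ccl2. Levels and differences of the members are therefore given as a description, and the p-values printed beside them come from the fit over all probe sets and support nothing further.

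The livers came from Sprague-Dawley rats, an outbred laboratory strain, with 5 animals given a short-term exposure to bulk drug industry effluent and 5 controls. Dose, days of exposure, route and age are not in the labels. The labels count 10 rats for the 10 arrays, which makes an array 1 animal. RNA was measured on Affymetrix 3' expression arrays, and values are on a log2 scale, where a difference of 1 is a doubling. Precision is limited by there being 5 arrays a group. Hepatocyte markers were strong on every array, with all 8 measured markers above the median probe set, and their summed level overlapped between the groups at 144980 to 148571 in exposed livers and 144237 to 149209 in control livers. Any pair of arrays correlated between 0.991 and 0.996. The log2 ratio of 3' to 5' control sets, a sign of RNA quality, was 0.494 to 0.604 in exposed livers and 0.508 to 0.735 in control livers, with the highest value in control animal 5. Labels name no scan or extraction batch.

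Interferon gamma is released mainly by T cells and natural killer cells and acts through a receptor made of Ifngr1 and Ifngr2. The receptor signals through Janus kinases, and genes that respond to interferons often carry gamma-activated sites (GAS) or interferon-stimulated response elements (ISRE) in their promoters. Cxcl9, Cxcl10 and Cxcl11 are chemokines that draw activated T cells through the receptor Cxcr3, and Ccl2 draws monocytes through Ccr2. Gbp2 and Gbp5 are guanylate-binding proteins, and Igtp and Irgm are immunity-related GTPases, both families known from mice for defence against microbes inside cells. Socs1 is induced by cytokines and inhibits the Janus kinases in turn.

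In the RefSeq annotation of assembly GRCr8, Cxcl11, Cxcl10 and Cxcl9 follow one another on chromosome 14, with Cxcl10 between the other two, and Igtp lies next to Irgm2 on chromosome 10. Promoter windows from 250 bases before to 50 bases after the annotated start were found for 8 of the 9 listed genes, and they are printed for the 3 chemokines that are neighbours on the chromosome and for the 3 measured GTPases. Letters in capitals mark matches to GAS (TTCNNNGAA), ISRE (GAAA, any 2 bases, GAAA) or the NF-kappaB consensus, searched on both strands. The windows, 5′ to 3′ on the gene's strand, are at chr14:16006916-16007215 (+) for Cxcl9, chr14:15988816-15989115 (+) for Cxcl10, chr14:15973478-15973777 (+) for Cxcl11, chr2:234005477-234005776 (+) for Gbp2, chr10:42874797-42875096 (+) for Igtp and chr10:33742529-33742828 (-) for Irgm.
Cxcl9: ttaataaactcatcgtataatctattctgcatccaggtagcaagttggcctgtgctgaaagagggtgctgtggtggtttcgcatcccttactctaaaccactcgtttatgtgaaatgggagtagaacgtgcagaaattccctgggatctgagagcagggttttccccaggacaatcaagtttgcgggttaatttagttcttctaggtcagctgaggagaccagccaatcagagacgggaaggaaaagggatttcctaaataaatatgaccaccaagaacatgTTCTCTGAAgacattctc
Cxcl10: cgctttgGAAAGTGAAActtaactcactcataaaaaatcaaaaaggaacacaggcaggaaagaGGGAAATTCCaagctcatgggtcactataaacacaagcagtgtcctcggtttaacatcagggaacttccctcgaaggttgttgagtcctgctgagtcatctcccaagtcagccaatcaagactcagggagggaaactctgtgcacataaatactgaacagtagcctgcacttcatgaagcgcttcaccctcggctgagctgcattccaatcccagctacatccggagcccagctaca
Cxcl11: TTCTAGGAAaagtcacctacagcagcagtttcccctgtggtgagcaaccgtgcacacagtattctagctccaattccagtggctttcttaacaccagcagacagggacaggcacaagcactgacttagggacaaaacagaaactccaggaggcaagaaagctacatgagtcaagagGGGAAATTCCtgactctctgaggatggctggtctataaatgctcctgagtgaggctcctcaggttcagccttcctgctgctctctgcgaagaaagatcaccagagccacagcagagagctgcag
Gbp2: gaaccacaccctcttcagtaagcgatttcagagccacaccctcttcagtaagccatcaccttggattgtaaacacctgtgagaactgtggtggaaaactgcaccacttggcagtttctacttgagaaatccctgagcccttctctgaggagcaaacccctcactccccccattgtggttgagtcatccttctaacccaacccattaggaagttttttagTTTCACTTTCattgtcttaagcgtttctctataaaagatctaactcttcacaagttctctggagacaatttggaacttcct
Igtp: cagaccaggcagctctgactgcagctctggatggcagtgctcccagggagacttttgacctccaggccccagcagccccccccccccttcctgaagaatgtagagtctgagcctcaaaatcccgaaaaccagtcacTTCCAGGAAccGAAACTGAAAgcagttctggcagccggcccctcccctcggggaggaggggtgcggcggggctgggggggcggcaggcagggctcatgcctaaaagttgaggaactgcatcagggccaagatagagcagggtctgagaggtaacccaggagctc
Irgm: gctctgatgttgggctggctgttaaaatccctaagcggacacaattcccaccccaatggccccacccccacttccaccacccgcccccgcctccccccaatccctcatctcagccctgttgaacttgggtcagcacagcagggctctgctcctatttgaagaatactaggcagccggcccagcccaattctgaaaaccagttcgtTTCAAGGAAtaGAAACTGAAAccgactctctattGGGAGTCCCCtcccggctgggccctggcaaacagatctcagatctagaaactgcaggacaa

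A GAS match was present in 5 of the 8 windows, against 8.87% of 33469 rat promoters of the same length. An ISRE match was present in 6 of 8, against 3.92%, and an NF-kappaB match in 4 of 8, against 4.18%. The windows of Cxcl10 and Cxcl11 hold the same NF-kappaB match, GGGAAATTCC, which starts 187 bases before the start of Cxcl10 and 74 bases before that of Cxcl11. Cxcl9 differs from both in having a single match, a GAS that lies 32 to 40 bases after its start. The windows of Igtp and Irgm share an arrangement, a GAS followed after 2 bases by the ISRE letters GAAACTGAAA. It starts 114 bases before the start of Igtp and 45 bases before that of Irgm. This spacing was looked at after the sequences had been seen. Of the 33469 promoters 7 hold a GAS followed after 2 bases by any ISRE match, on either strand (0.0209%). They are Igtp, Irgm, Irgm2, Ifgga2l2, Parp14, Stra8 and LOC134480693, of which Irgm2 and LOC134480693 are the annotated neighbours of Igtp. In the Socs1 window, which is not printed, a pair of ISRE matches overlap each other. A match describes these letters and is no evidence of binding.

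**Figure D1:**
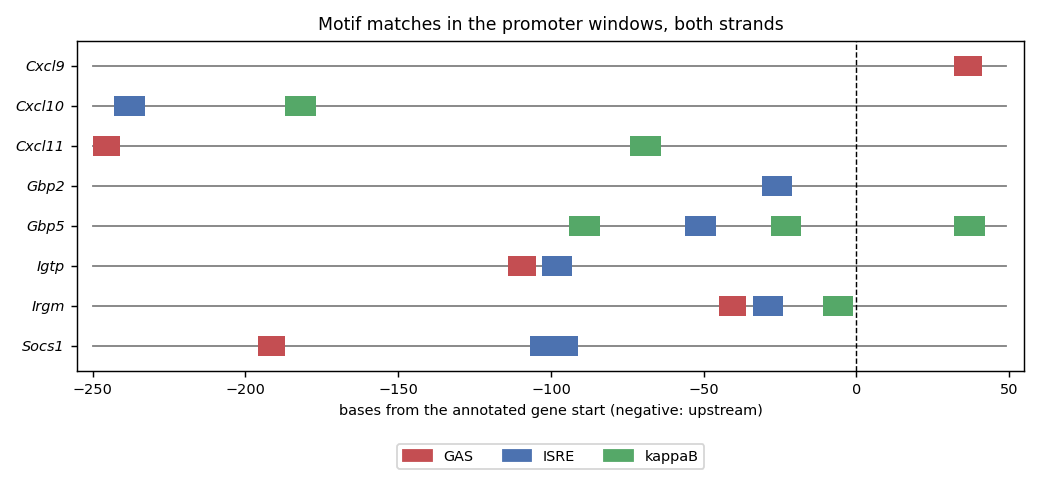
Positions of GAS, ISRE and NF-kappaB (kappaB) matches in the promoter windows of 8 genes, as bases from the annotated gene start (dashed line, negative values upstream). Igtp and Irgm show a GAS and an ISRE side by side, 2 bases apart, while Cxcl9 has 1 match, downstream of its start.

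Exposed livers had higher means than control livers for all 11 member probe sets, but the differences were small, from 0.01 to 0.49 log2 units, and limma called 0 of the 11 at an adjusted p of 0.05. The share called among all probe sets was likewise 0.00%, and 52.0% of all probe sets had a higher mean in exposed livers. The members' median difference was 0.13, against 0.0044 over all probe sets. Limma adjusted p values of the members lay between 0.879 and 0.990. An unadjusted p under 0.05 was reached by 2 member probe sets, those of Cxcl10 and Gbp2, both higher in exposed livers, beside 3.07% of all probe sets in that direction, 2.39% in the other and 5.46% in either. Groups did not overlap for 1 member, Cxcl10, and the share of all probe sets whose exposed values all lay above the control values was 0.570%. Probe sets of 1 gene and genes of 1 array share their source, so the 11 directions are not independent of one another.

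Cxcl10 was measured by 1 probe set. It read 6.19, 6.14, 6.24, 6.62 and 6.25 in exposed animals 1 to 5, against 5.84, 5.85, 5.96, 6.14 and 6.07 in control animals 1 to 5. Every exposed animal lay above every control animal, but the lowest exposed and the highest control value were only 0.0056 log2 units apart. The mean was 6.29 ± 0.19 in exposed livers and 5.97 ± 0.13 in control livers (SD, n = 5 each), a difference of 0.32 ± 0.10 (SE, 95% interval 0.11 to 0.52) or 1.25-fold. Exposed animal 4 stood apart from the rest of its group, and without it the difference was 0.23. In the fit over all probe sets the limma adjusted p was 0.879.

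Cxcl9 and Cxcl11, which act on the same receptor as Cxcl10, had overlapping groups. The stronger Cxcl9 probe set read 7.82, 7.50, 7.91, 7.39 and 8.18 in exposed animals 1 to 5, against 7.36, 7.72, 7.31, 8.14 and 7.72 in control animals 1 to 5. Exposed animal 5 and control animal 4 were the highest of their groups at nearly the same level, so the spread between animals of a group was wider than the difference between groups. That difference was 0.11 ± 0.17 (SE, 95% interval -0.26 to 0.48), and leaving out single animals moved it between 0.0053 (without exposed animal 5) and 0.23 (without control animal 4). The other Cxcl9 probe set gave 0.15 ± 0.19, which moved between 0.025 (without control animal 3) and 0.27 (without control animal 4). Both varied together between animals, with r = 0.967 over the 10 animals after group means were removed.

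Cxcl11 read 8.93, 8.98, 9.45, 9.34 and 9.69 in exposed animals 1 to 5, against 8.94, 9.27, 8.99, 9.45 and 9.49 in control animals 1 to 5. Both groups held low and high animals. The means were 9.28 ± 0.32 in exposed livers and 9.23 ± 0.26 in control livers (SD, n = 5 each), and the difference of 0.05 had a 95% interval of -0.28 to 0.39. Its direction rests on single animals, as it was -0.05 without exposed animal 5, -0.02 without control animal 1 and -0.0084 without control animal 3.

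Ccl2, the monocyte chemokine, had a mean below that of the median probe set. It read 4.54, 4.65, 4.44, 5.42 and 4.59 in exposed animals 1 to 5, against 4.78, 4.11, 4.28, 4.36 and 4.27 in control animals 1 to 5. Exposed animal 4 was far above all other animals, and control animal 1 was the next highest. The difference between groups was 0.37 ± 0.17 (SE, 95% interval -0.0086 to 0.75), and without exposed animal 4 it was 0.195.

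**Figure D2:**
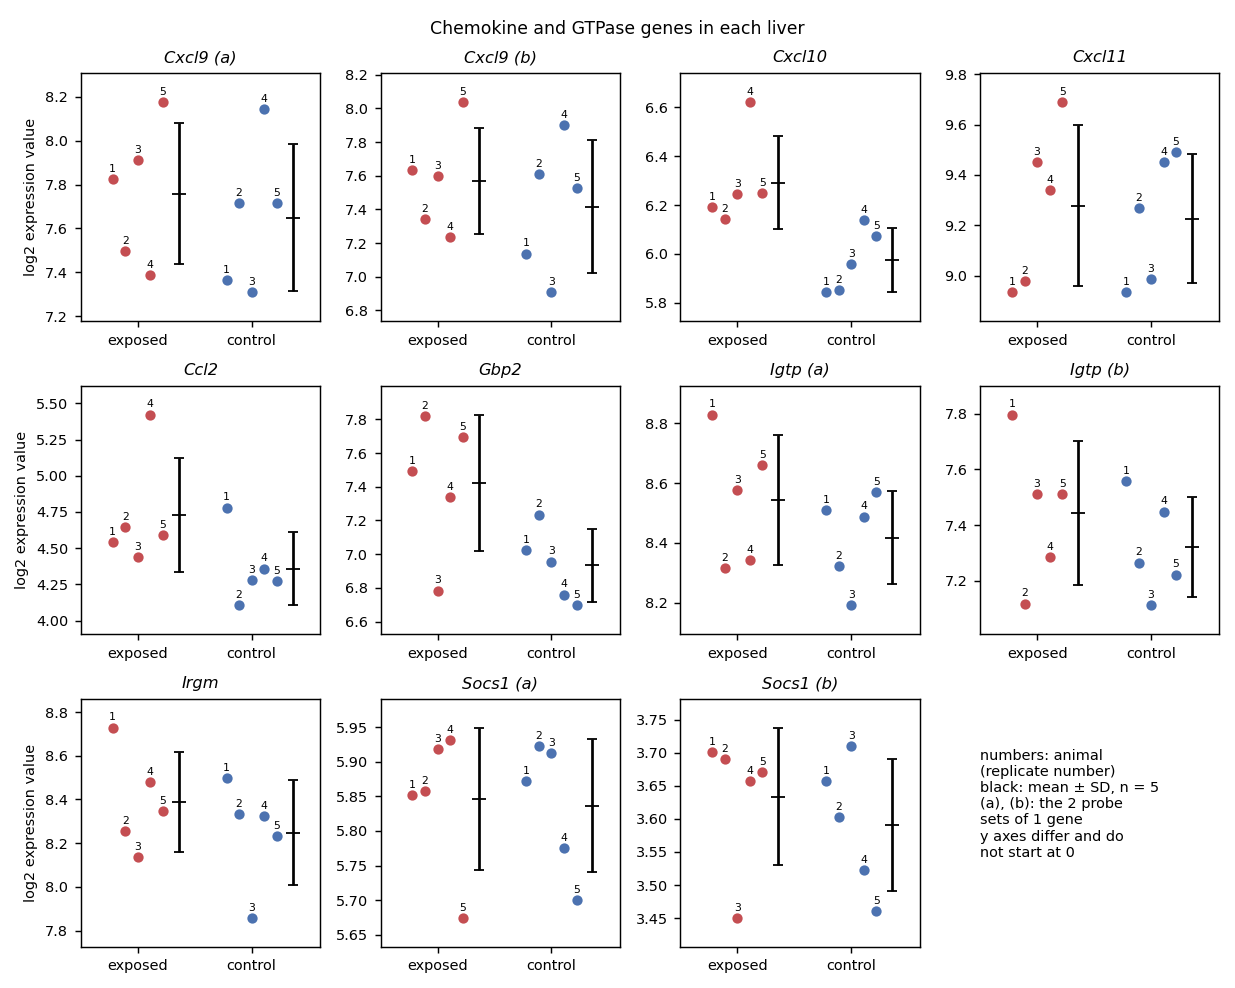
Log2 expression values of the 11 probe sets in each liver, exposed animals on the left and control animals on the right of each panel, with replicate numbers beside the points and the mean ± SD (n = 5) in black. Cxcl10 is the only panel in which the groups do not overlap, and exposed animal 4 lies apart at 6.62 for Cxcl10 and 5.42 for Ccl2.

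Among the GTPases, Gbp2 had the largest difference of the 11 probe sets. It read 7.49, 7.82, 6.78, 7.34 and 7.69 in exposed animals 1 to 5, against 7.02, 7.23, 6.96, 6.76 and 6.70 in control animals 1 to 5. In exposed livers 4 animals lay above the highest control, while exposed animal 3 lay among the lowest controls. The means were 7.42 ± 0.40 in exposed livers and 6.93 ± 0.22 in control livers (SD, n = 5 each), a difference of 0.49 ± 0.17 (SE, 95% interval 0.12 to 0.86) or 1.40-fold, and its adjusted p in limma was 0.879. It was 0.65 without exposed animal 3 and between 0.39 and 0.57 without each other animal in turn.

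Gbp2 was set against marker genes of the liver's other cell types, and 0 of 56 such relations of the 8 genes passed 0.05 after adjustment. The summed level of 11 macrophage and Kupffer cell markers, taken on the linear scale, was 4428 to 8568 in exposed livers and 3544 to 7877 in control livers. Means were higher in exposed livers for 10 of the 11, with 0 called by limma and 0 at an unadjusted p under 0.05. Among all probe sets 52.0% had a higher mean, 0.00% were called and 5.46% had such a p in either direction. Differences of Clec4f, Cd5l and Aif1 were smaller with the RNA quality ratio in the fit, and about as small without control animal 5 alone. These had the smallest p of the 11 markers, and the others are not given under these fits. In exposed livers the highest ratio, 0.604, belonged to animal 2, which had the highest marker level. A part of RNA quality apart from control animal 5 was not tested. The difference of Clec4f, a Kupffer cell lectin, was 0.22, but 0.028 in a fit that includes the RNA quality ratio and 0.031 without control animal 5, which had the highest ratio and the lowest marker level. That of Cd5l, a protein secreted by macrophages, was 0.36, but 0.13 and 0.16, and that of Aif1 was 0.34, but 0.11 and 0.13. The Gbp2 difference was 0.39 with the RNA quality ratio and 0.43 without control animal 5. Exposed animal 3, the lowest of its group for Gbp2, had the lowest marker level of its group, and exposed animal 2, the highest for Gbp2, had the highest. Among controls, animal 5 was lowest and animal 2 highest in both. Over the 10 animals, with group means removed, Pearson's r was 0.825 (exact permutation p 0.00153) and Spearman's rho 0.818 (exact permutation p 0.00708), with r = 0.913 within exposed and 0.861 within control livers. Without exposed animal 3 and control animal 5, the 2 farthest from the median marker level once group means were removed, r was 0.701.

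All 11 of these markers had a positive r with Gbp2, from 0.739 for Aif1, a macrophage protein, to 0.876 for Cd163, a scavenger receptor. The 14 T and natural killer cell markers did as well, from 0.163 for the adhesion receptor Cd2 to 0.938 for Nkg7, a granule protein of killer cells. Their summed level was 414 to 554 in exposed livers and 401 to 524 in control livers, and only 3 of the 14 were above the median probe set. Means were higher in exposed livers for 13 of the 14, beside 52.0% of all probe sets. Limma called 0 of the 14, beside 0.00% of all probe sets. An unadjusted p under 0.05 was found for 1, higher in exposed livers, beside 3.07% of all probe sets in that direction. The part of these lymphocyte markers in the Gbp2 difference was not tested. Cd3d, Nkg7 and Cd4, the 3 of the 14 with the smallest p, differed by 0.203, 0.135 and 0.167. With the RNA quality ratio in the fit these differences were 0.150, 0.075 and 0.095, and without control animal 5 they were 0.168, 0.104 and 0.085. Summed T and natural killer cell markers gave r = 0.848 with Gbp2 (exact permutation p 0.00438) and rho = 0.782 (exact permutation p 0.0135). The 3 measured B cell markers gave r = 0.886 (exact permutation p 0.00292) and rho = 0.842 (exact permutation p 0.00729). Without exposed animal 3 and control animal 5, r was 0.612 for the T and natural killer cell markers and 0.685 for the B cell markers. Whether Gbp2 went with these lists more than with others was not tested. Endothelial markers gave r = 0.606 with Gbp2 (exact permutation p 0.0834, adjusted 0.680) and rho = 0.733 (exact permutation p 0.0316, adjusted 0.350), and r was 0.323 without exposed animal 2 and control animal 5. Neutrophil markers gave r = 0.258 (exact permutation p 0.4997, adjusted 0.680) and rho = 0.248 (exact permutation p 0.522, adjusted 0.796), with r = 0.717 within exposed and -0.476 within control livers. These relations were looked for after the Gbp2 values had been seen, among 56 relations of 8 genes with 7 marker lists. After Benjamini-Hochberg adjustment over the 56 relations the exact permutation p was 0.0817 for each of the 3 Pearson relations and 0.204 to 0.253 for their rho. Of the 56, 0 passed 0.05 by r or by rho, with 4 at an unadjusted p under 0.05 by r and 7 by rho. Fewer cells of a type and less RNA per cell cannot be told apart in whole liver. With the macrophage marker level as a covariate, an alternative chosen after seeing the data, the difference of Gbp2 between groups was 0.35 ± 0.11 (SE, 95% interval 0.11 to 0.59), with a limma adjusted p of 0.914.

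Igtp and Irgm, whose promoter windows share the GAS and ISRE arrangement shown above, had overlapping groups. The stronger Igtp probe set read 8.83, 8.31, 8.58, 8.34 and 8.66 in exposed animals 1 to 5, against 8.51, 8.32, 8.19, 8.49 and 8.57 in control animals 1 to 5. Irgm read 8.73, 8.25, 8.14, 8.48 and 8.35 in exposed animals 1 to 5, against 8.50, 8.33, 7.86, 8.32 and 8.23 in control animals 1 to 5. Exposed animal 1 was the highest and control animal 3 the lowest of all 10 animals for both genes. The differences were 0.13 ± 0.11 (SE, 95% interval -0.10 to 0.36) for Igtp and 0.14 ± 0.13 (-0.13 to 0.42) for Irgm. Without exposed animal 1 they were 0.057 and 0.056, and without control animal 3 0.072 and 0.043. The second Igtp probe set, at 0.12 ± 0.12, followed the first with r = 0.852 within groups. Its difference was 0.031 with the RNA quality ratio as a covariate, 0.035 without exposed animal 1 and 0.070 without control animal 3, and that of Irgm was 0.076 with the covariate. The stronger Igtp probe set changed less with the covariate, to 0.103. A further probe set names Igtp together with Irgm2 and Igtpl1 and was left out by the rule. It spread more widely, at 4.75 to 6.10 in exposed and 4.28 to 6.38 in control livers, and differed by -0.03 ± 0.34.

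Socs1 had the smallest spread between animals and the smallest difference. Its stronger probe set read 5.85, 5.86, 5.92, 5.93 and 5.67 in exposed animals 1 to 5, against 5.87, 5.92, 5.91, 5.78 and 5.70 in control animals 1 to 5. The groups overlapped almost wholly, and the difference of 0.01 (95% interval -0.14 to 0.16) turned negative under several alternatives, such as -0.01 with array medians subtracted. The other probe set, dimmer than the median probe set, gave 0.04 ± 0.07 and followed the first only loosely, with r = 0.220 within groups.

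**Figure D3:**
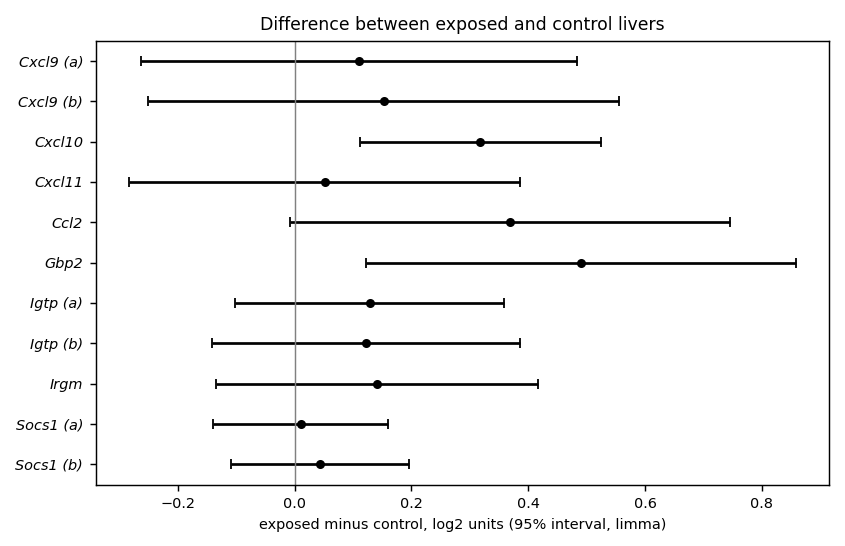
Exposed minus control difference of each member probe set in log2 units, with its 95% interval from limma, where (a) and (b) are the probe sets of 1 gene. All 11 points lie right of 0, from 0.01 for Socs1 to 0.49 for Gbp2, and the intervals of Cxcl10 and Gbp2 alone leave out 0.

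Members differed in how much they varied between animals of 1 group. The pooled SD within groups was 0.29 to 0.36 log2 units for Cxcl9, Cxcl11, Ccl2 and Gbp2, against 0.13 for the median of all probe sets. For Igtp and Irgm it was 0.19 to 0.23, for Cxcl10 0.16 and for Socs1 0.10. An SD above the 90th percentile of all probe sets was found for 6 of the 11, namely both of Cxcl9 and those of Cxcl11, Ccl2, Gbp2 and Irgm.

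Co-variation of the 8 genes across animals was mixed. Among 28 pairs, with group means removed and the stronger probe set of each gene, 13 had a positive Pearson's r and the median r was -0.08. In exact permutation tests within groups, 0 pairs passed 0.05 after Benjamini-Hochberg adjustment over the 28, by r or by rho, and 1 had an unadjusted p under 0.05 by each. This pair by r was Cxcl9 with Cxcl11, at r = 0.691 (exact permutation p 0.0451, adjusted 0.480) and rho = 0.588 (exact permutation p 0.0997, adjusted 0.698). It was 0.563 within exposed and 0.858 within control livers, and 0.867 without exposed animal 4 and control animal 4, the 2 farthest from the median of Cxcl9 once group means were removed. Without exposed animal 5, the highest for both genes, it was 0.572. Cxcl10, whose gene lies between these on the chromosome, gave r = 0.02 with Cxcl9 (rho = 0.05, exact permutation p 0.968 and 0.894, adjusted 0.973 and 0.963) and r = 0.456 with Cxcl11 (rho = 0.624, exact permutation p 0.238 and 0.0707, adjusted 0.742 and 0.660). Without exposed animal 4 and control animal 4, r was 0.464 with Cxcl9 and 0.631 with Cxcl11.

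Cxcl10 and Ccl2 gave r = 0.572 (exact permutation p 0.137, adjusted 0.480) and rho = 0.358 (exact permutation p 0.333, adjusted 0.847). The relation rests on exposed animal 4, as r was -0.27 without it and -0.363 without exposed animal 4 and control animal 4. Cxcl10 and Gbp2, the members with the smallest p in the comparison of the groups, gave a negative r within groups that did not pass the threshold. It was r = -0.42 (exact permutation p 0.314, adjusted 0.880) and rho = -0.685 (exact permutation p 0.0449, adjusted 0.660). Their r was -0.243 within exposed and -0.892 within control livers. Without exposed animal 4 and control animal 4, r was -0.565. Igtp and Irgm gave r = 0.574 (exact permutation p 0.107, adjusted 0.480) and rho = 0.491 (exact permutation p 0.191, adjusted 0.764). Without exposed animal 2 and control animal 3, r was 0.287. Of the other genes with a GAS and an ISRE 2 bases apart, Irgm2 gave r = 0.652 with Igtp and 0.478 with Irgm. Parp14, an interferon-induced ADP-ribosyltransferase, gave 0.502 and 0.355, each over 10 animals and as a description. The remaining genes with this arrangement have no value here. Igtp also gave r = 0.597 with Cxcl9 (exact permutation p 0.0925, adjusted 0.480), whose window lacks the arrangement. Whether genes that share it vary together more than others was not tested. Control animal 3 was the lowest control for Igtp, Irgm, Irgm2 and Parp14. The low reading was not particular to these genes, as this animal was also the lowest of all 10 on both Cxcl9 probe sets, at 7.31 and 6.91. Control animal 3 read 11.13 for Irgm2, where the other controls read at least 11.54, and 7.92 for Parp14, where they read at least 8.10. Exposed animals did not line up in this way. Exposed animal 3 was the highest of its group for Irgm2 and Parp14 but the lowest for Irgm, and exposed animal 1 was the highest for Igtp and Irgm. The r of Irgm2 and Parp14 are not given without single animals.

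**Figure D4:**
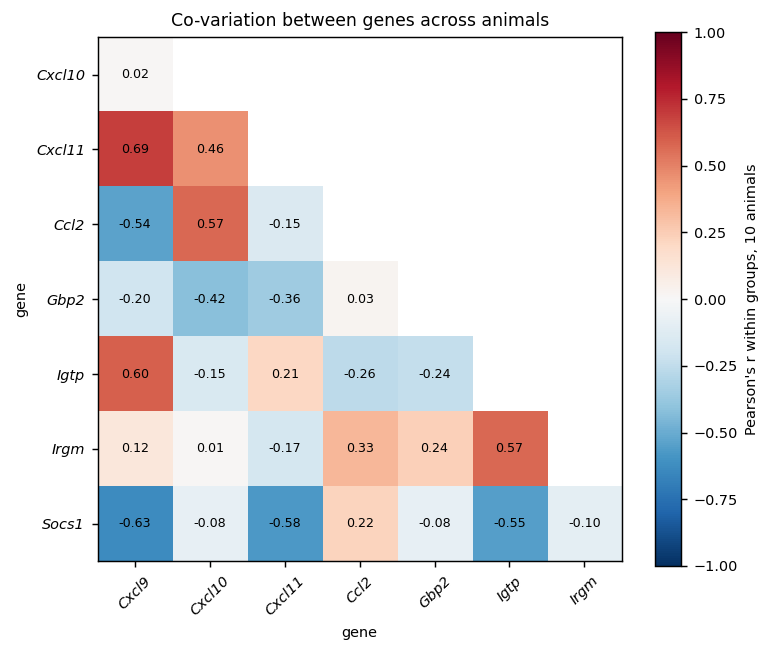
Pearson's r between each pair of the 8 genes over 10 animals after each group's mean was removed, on a scale of -1 to 1. Positive and negative values are mixed, with 13 of 28 above 0 and the highest, 0.69, for Cxcl9 with Cxcl11.

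**Figure D5:**
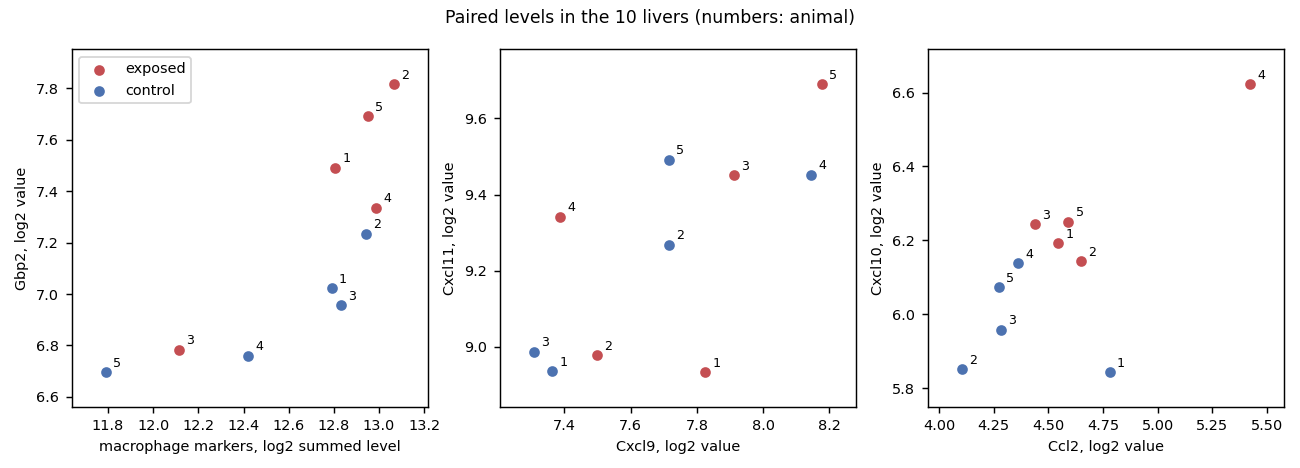
Levels in the 10 livers, exposed in red and control in blue, with replicate numbers, for Gbp2 against the log2 summed level of macrophage markers, Cxcl11 against Cxcl9 and Cxcl10 against Ccl2. Within each group Gbp2 is lowest in the animal with the lowest markers, exposed animal 3 and control animal 5, and exposed animal 4 lies alone at the upper right of the last panel.

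Among 9659 other genes above the median probe set, those most like Cxcl10 within groups, by Pearson's r over the 10 animals, were Fam83h (0.952), Tubgcp3 (0.943), Mef2b (0.926), Bpifb6 (0.924) and Ctdspl (0.924). For Ccl2 they were Faap100 (0.962), Wdr48 (0.916), Nccrp1 (0.909), Ccdc159 (0.905) and Troap (0.897). Exposed animal 4 was the highest of all animals for each of these 10 genes except Tubgcp3. As that animal stood apart for Cxcl10 and Ccl2, genes picked for a high r with them tend to peak there. The shared peak therefore follows from the choice and is no separate result. For Gbp2 they were Panx1 (0.968), Calcrl (0.940), Abi3 (0.932), Arpc1b (0.929) and Gnpda1 (0.926). As the highest of many values, these r are a description, and no pair of these lists shares a gene.

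Other genes of the interferon gamma pathway were taken from a list of 32, of which 26 were measured. Limma called 0 of the 26 in either direction, with 0 at an unadjusted p under 0.05, beside 0.00% and 5.46% of all probe sets. A higher mean in exposed livers was found for 19, beside 52.0% of all probe sets, and a lower one for 7. The median difference was 0.06. Ifng itself averaged 3.06 in exposed and 3.10 in control livers, a difference of -0.04 ± 0.06 (SE), with both means below that of the median probe set. Its receptor genes Ifngr1 and Ifngr2 differed by 0.0026 ± 0.080 and 0.05 ± 0.07. Irf1, a transcription factor induced by interferon gamma, differed by -0.08 ± 0.20, and Cxcr3, the receptor of Cxcl9, Cxcl10 and Cxcl11, by -0.01 ± 0.09. Cxcr3, like Ifng, was dimmer than the median probe set, and whether either was measurable here is unknown. These 5 were picked for their roles, after their values had been seen. The list's smallest p values belonged to Ido1, which degrades tryptophan (0.19 ± 0.11), Ccr2, the receptor of Ccl2 (0.20 ± 0.12), and Tap1, a peptide transporter of antigen presentation (0.14 ± 0.10), with limma adjusted p values of 0.880 to 0.903. Ido1 and Ccr2 had means below that of the median probe set. With the RNA quality ratio as a covariate the differences were 0.122 for Ido1, 0.119 for Ccr2 and 0.152 for Tap1. Leaving out single animals moved Ido1 between 0.108 (without exposed animal 4) and 0.27 (without exposed animal 3), Ccr2 between 0.109 (without exposed animal 5) and 0.29 (without exposed animal 3), and Tap1 between 0.072 (without control animal 2) and 0.195 (without exposed animal 3).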

How the data were processed

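According to the submitters' processing notes, the authors ran RMA in R 2.8.1, and the deposited table holds their log2 values, 1 a probe set and array. RMA, as commonly run, corrects background and quantile-normalizes arrays against one another. That the scale is log2 follows from the range of 2.19 to 15.0. Scanner files were not used here. After removal of 57 control sets from 31099 probe sets, limma 3.58.1 under R 4.3.3 fitted the other 31042 (lmFit, then eBayes). P-values are two-sided and were adjusted by Benjamini-Hochberg across the whole table, with a threshold of 0.05. Gene names came from the platform annotation, where 20826 probe sets name 1 gene. For 8 of the 9 listed genes the annotation's gene number matched RefSeq's for GRCr8.

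Members and lists were chosen with earlier results of these data known. Named besides the members were the 3 genes with the smallest p of the pathway, the macrophage and the T and natural killer cell lists. So were the 5 genes most correlated with each of Cxcl10, Ccl2 and Gbp2. Lists were represented by each gene's probe set with the highest mean. Correlations used values with group means removed and every order of animals within groups (14400), two-sided, in Python 3.11.15. Promoter sequences are RefSeq's for GRCr8. The fits and correlation tests were checked on simulated data. Alternatives covered a filter on values, centring, quantile normalization, a replicate block, array weights, the prior, covariates and leaving out each array.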

Additional observations from a re-analysis of the deposited data

Results flagged for a closer look

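In 3 of 22 groups of 5 animals, 1 animal lay far from the others, with a gap to its neighbour that took an unusually large part of the group's range. Chance flags about 1 in 20 groups, or 1.1 of 22, but the Cxcl10 and Ccl2 readings were among the values on which the genes were chosen, so the count of 3 is a description and cannot be set against chance. Exposed animal 4 read 6.62 for Cxcl10, where the other exposed animals read 6.14 to 6.25, and 5.42 for Ccl2, where they read 4.44 to 4.65. It was not the highest of its group for Cxcl9 or Cxcl11. Exposed animal 3 read 3.45 on the dimmer Socs1 probe set, where the others read 3.66 to 3.70, while on the stronger Socs1 probe set it read 5.92, the second highest of its group. RNA quality ratios were 0.592 for exposed animal 4 and 0.578 for exposed animal 3, within the range of the other arrays. Their part in the readings was not tested.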

How the results depend on the processing

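Under 18 alternatives, of which the macrophage marker level as a covariate was chosen after seeing the data, 0 member probe sets and 0 pathway genes were called by limma, the alternatives that leave out each array included (0 to 0), with 2 or 3 member probe sets at an unadjusted p under 0.05 and 0 pathway genes, except 2 without exposed animal 3. Among all probe sets limma called 1 without exposed animal 1 and 0 otherwise. An unadjusted p under 0.05 in limma was reached by 1278 (without exposed animal 5) to 2065 (without exposed animal 3) of the 31042 probe sets. Under the filter on low values it was reached by 827 of 15521. The 2 of 26 pathway genes without exposed animal 3 thus stood beside the highest of these counts. Among 196 member differences so recomputed, 183 kept their sign and their side of the threshold and 13 changed sign. The filter on low values kept 9 of the 11 member probe sets. The stronger Socs1 probe set gave -0.012 with array medians subtracted, -0.0017 with quantile normalization, -0.0046 with array weights, -0.00064 with the RNA quality ratio and -0.0081 with the macrophage marker level, and -0.024 to 0.054 without single arrays. The dimmer one gave -0.0053 with the macrophage marker level. Cxcl11 ranged from -0.051 to 0.14 without single arrays. Ifngr1 gave -0.020 with medians subtracted, -0.0054 with array weights, -0.051 with the RNA quality ratio and -0.064 with the macrophage marker level, and -0.060 to 0.045 without single arrays. Without single arrays Irf1 ranged from -0.28 to 0.062 and Cxcr3 from -0.062 to 0.040, and with the RNA quality ratio Irf1 gave -0.30 and Cxcr3 0.0020. The causes were not tested.

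Pairs of members past the threshold numbered 0 under each alternative tried, single arrays left out included, with 0 to 3 at an unadjusted exact permutation p under 0.05. For Cxcl9 with Cxcl10, r was -0.00072 with medians subtracted, -0.026 with quantile normalization and -0.30 to 0.70 without single arrays. For Cxcl10 with Ccl2 it was -0.27 to 0.885 without single arrays, and for Cxcl10 with Gbp2 0.26 with group means kept. Gbp2 against the macrophage marker level stayed between 0.699 and 0.910 without single arrays. Replicate numbers are shared between groups, and the labels do not say whether they pair animals. Same-numbered animals deviated together only at r of -0.070 to 0.094 over all probe sets, and 0 of 10 arrays correlated best with their own number. No pairing was seen in the values, but a pairing with little effect on them cannot be told from none. A replicate block left 0 member probe sets, 0 pathway genes and 0 pairs past the threshold, and gave r of -0.41 for Cxcl10 with Cxcl11 and -0.73 for Cxcl9 with Cxcl10. Under the block these r rest on 5 differences between same-numbered animals, not on 10 separate animals. Their adjusted exact permutation p values were 0.668 and 0.633. The arrays' number limits all of these values, and which probe sets were too dim to measure is unknown.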

Other observations

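Exposed animal 4, which stood highest for Cxcl10 and Ccl2, read 7.39 and 7.23 on the Cxcl9 probe sets, the lowest of its group on both. Exposed animal 5, the highest of its group for Cxcl9 at 8.18 and Cxcl11 at 9.69, was the lowest of its group on the stronger Socs1 probe set at 5.67. Within groups Socs1 gave r = -0.63 with Cxcl9 (rho = -0.515, exact permutation p 0.071 and 0.159, adjusted over 28 pairs 0.480 and 0.742) and r = -0.58 with Cxcl11 (rho = -0.406, exact permutation p 0.104 and 0.265, adjusted 0.480 and 0.779). Without exposed animal 4 and control animal 4, r with Cxcl9 was -0.556, and without exposed animals 1 and 5, r with Cxcl11 was -0.458. Of the 14 T and natural killer cell markers, 13 had a negative r with Cxcl10 within groups, and so did 10 of 11 macrophage markers, while all of both lists had a positive r with Gbp2. These signs are a description, as markers of 1 cell type share their animals and arrays.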
